A study of Mus musculus with 12 samples.

Results

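The metastatic mouse breast cancer line 4T1 was compared with the line 168FARN, which the labels call non-metastatic, over the microRNAs (miRNAs) that were measurable in either. Members were the miRNAs detected well above background on each of the 3 arrays of 4T1, or on each of the 3 arrays of 168FARN. Of 567 mouse miRNAs with probes on the array, 202 met this rule. Both lines come from spontaneous breast cancer of female BALB/c mice, carry no engineered change (genotype wild type) and were not treated. The series also holds 3 arrays each of 67NR and 4TO7, labelled non-metastatic and of the same origin, which here serve only to estimate the spread and to show levels. Total RNA was taken from each sample with Trizol and hybridised to a one-colour Agilent mouse miRNA array, on which the brightness of a spot reports the amount of a miRNA. Nothing in the labels tells if the 3 repeats came from separate cultures. The p-values therefore reflect the variation among these samples alone, which may be technical. Each line is a single cell line, so a difference between them is a difference between 2 lines and not between metastatic and non-metastatic tumours in general.

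A miRNA is a short RNA cut from a hairpin precursor. It guides a repressor complex to messenger RNAs that pair with its seed, bases 2 to 8, so miRNAs with the same seed share many targets. Many miRNAs lie in clusters that are transcribed together, and related clusters elsewhere in the genome can carry members with the same seeds. Tumour cells are known to differ from each other in several such clusters, among them miR-17-92, which Myc drives, and the miR-34 genes, which p53 drives.

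Levels are given as log2 of the signal divided by a scale set for each array, the 75th percentile of 170 bright probes, so that a level of 0 equals that percentile. Values below a floor of -5.58 were set to it, and values at the floor have no order. "Read" means well above background. Differences are 4T1 minus 168FARN in log2 with their standard error (SE), from limma fitted to all 12 arrays with Benjamini-Hochberg adjustment over the 224 mouse miRNAs read in at least 1 of the 4 lines. A miRNA was called higher or lower at an adjusted p below 0.05, with n = 3 arrays per line. A line in which a miRNA was not read, or lay at the floor on all arrays, gives only a bound, and such a fold is written as "at least". Arrays at the floor add no spread to the fit. The adjusted p beside such a bound leaves out their variation and can be too small.

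On the 6 arrays 17.8 to 21.1% of probes were read, and no spot was saturated. Arrays of 4T1 correlated with each other at r = 0.999 over the 137 miRNAs read on all 6 arrays. Those of 168FARN correlated at 0.991 to 0.998, and arrays of different lines at 0.924 to 0.931. The 3 arrays of 4T1 and 168FARN replicates 2 and 3 lay on 1 slide, and 168FARN replicate 1 lay on the other slide with 67NR. Within the shared slide alone no call turned its direction.

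Mature sequences were found in RefSeq (GRCm38.p6) for 136 of the 202 members, and those that carry the main differences are shown here with the seed in capitals. The first set was lower in 4T1. It holds the 4 largest falls among miRNAs read in both lines, a relative of miR-34a, a member of the miR-29 family and 3 miRNAs of an X-linked cluster.
mmu-miR-497: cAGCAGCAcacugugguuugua
mmu-miR-195: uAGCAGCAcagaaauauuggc
mmu-miR-146a: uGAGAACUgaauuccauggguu
mmu-miR-34a: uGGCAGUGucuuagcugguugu
mmu-miR-34b-5p: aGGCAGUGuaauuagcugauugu
mmu-miR-29a: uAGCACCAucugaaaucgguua
mmu-miR-465c-3p: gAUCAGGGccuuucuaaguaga
mmu-miR-743a: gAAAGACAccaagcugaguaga
mmu-miR-743b-3p: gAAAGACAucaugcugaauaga
miR-497 and miR-195 share one seed, as do miR-34a and miR-34b-5p, and miR-743a and miR-743b-3p.

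The second set was higher in 4T1. It holds 3 miRNAs that were not read in 168FARN, the largest rise among those read in both lines, and members of the miR-17-92 cluster with their seeds.
mmu-miR-130b: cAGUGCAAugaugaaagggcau
mmu-miR-193b: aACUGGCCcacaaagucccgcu
mmu-miR-132: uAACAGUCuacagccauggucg
mmu-miR-181d: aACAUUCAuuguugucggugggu
mmu-miR-18a: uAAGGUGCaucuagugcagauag
mmu-miR-17: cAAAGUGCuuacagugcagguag
mmu-miR-20a: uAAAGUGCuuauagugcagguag
mmu-miR-19b: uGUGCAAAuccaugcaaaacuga
mmu-miR-92a: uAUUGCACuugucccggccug

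The third set shows miRNAs of one seed that were called in opposite directions, first the higher and then the lower.
mmu-miR-125b-5p: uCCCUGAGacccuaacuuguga
mmu-miR-125a-5p: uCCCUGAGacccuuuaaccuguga
mmu-miR-99a: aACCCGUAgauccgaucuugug
mmu-miR-99b: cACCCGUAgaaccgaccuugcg
mmu-let-7g: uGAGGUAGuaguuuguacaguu
mmu-let-7e: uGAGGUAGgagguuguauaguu
The members of a pair differ only outside the capitals, and the 3 lower ones shown come from a single cluster on chromosome 17. The let-7 pair is picked from 9 miRNAs of one seed, of which others outside that cluster, such as let-7i and let-7b, were also lower.

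Of the 202 members, 77 were called higher in 4T1, 89 were called lower and 36 were not called. Over all 224 tested miRNAs 74.1% were called, 34.4% higher and 39.7% lower, so that being called sets no member apart. These shares are the background for each count of called members below. Of the 137 read on all 6 arrays 80.3% were called, 53 higher and 57 lower, with a median difference of -0.01. The median SE over the members was 0.0544, so that small differences were called too. A called change of 2-fold or more was seen for 32 higher and 42 lower members, and for 15 and 17 of those read on all 6 arrays. In the call counts the balance of directions depended on the scaling. With quantile normalization 99 were called higher and 75 lower, and the median over the 137 miRNAs moved to 0.25. With the 75th percentile of all probes the counts were 93 and 73 and the median 0.21. In all, 131 of the 166 calls, 63 higher and 68 lower, were made in the same direction under each of 4 other scalings, and small differences below depend on that shift.

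**Figure D1:**
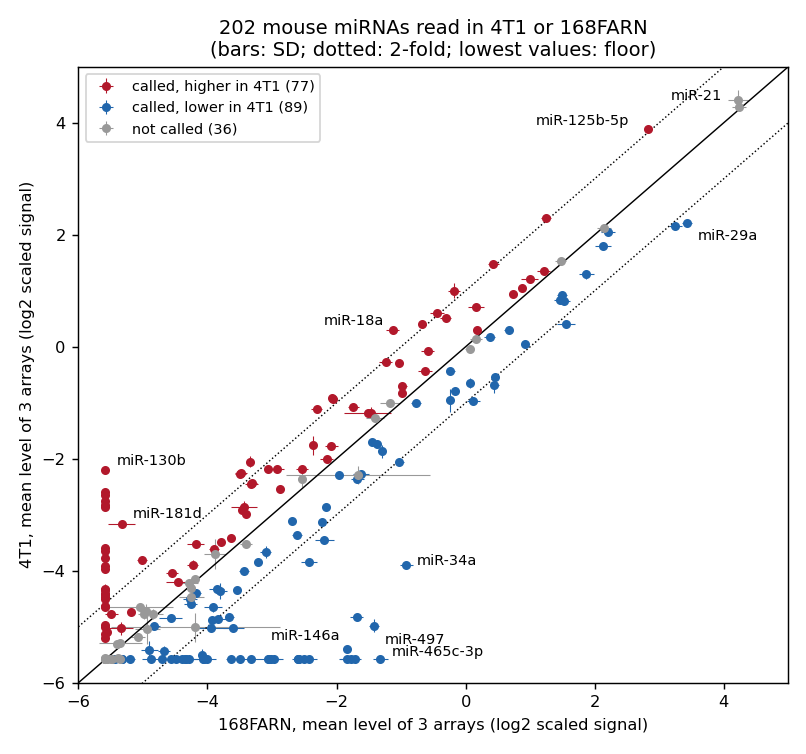
Mean level in 4T1 against mean level in 168FARN (log2 scaled signal, bars are SD over 3 arrays) of the 202 members, coloured by call. Most points lie near the diagonal, while miR-497, miR-146a, miR-195 and miR-34a lie far below it, and the points on the left and lower edges, at the floor of -5.58, are miRNAs at the floor in 168FARN or 4T1.

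The largest falls in 4T1 among miRNAs read on all 6 arrays were those of miR-497, miR-146a, miR-195 and miR-34a. miR-497 and miR-195 come from a single hairpin pair on chromosome 11 (mm9 chr11:70048234-70048584) and belong to the miR-15/16 seed family, which represses cyclins and Bcl2. The level of miR-497 was -5.02, -5.06 and -4.86 on the 4T1 arrays and -1.42, -1.35 and -1.50 on the 168FARN arrays. It was therefore near the floor in 4T1, and the arrays lay far apart, with a difference of -3.55 ± 0.08 (SE, adjusted p = 4.70e-12), or 11.7-fold. miR-195 read -4.82, -4.84 and -4.78 in 4T1 and -1.69, -1.60 and -1.80 in 168FARN, a difference of -3.12 ± 0.08 (adjusted p = 2.66e-11).

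Among the 8 members of the miR-15/16 list 5 were called lower and 3 higher, with a median of -0.52, against -0.04 over all 202 members. Over all tested miRNAs 39.7% were called lower and 34.4% higher. miR-322 and miR-503, which lie together on the X chromosome and are induced when cells leave the cycle to differentiate, were lower by modest amounts, at -0.68 ± 0.05 and -0.95 ± 0.04 (adjusted p = 1.44e-07 and 1.18e-09). In the same genomic cluster miR-450a-5p, outside this list, was called higher at 0.32 ± 0.10 (adjusted p = 0.0118). That call was lost within the second slide and under normexp. miR-542-3p of the cluster lay at the floor in both lines. miR-16 differed by -0.37 ± 0.05, while its cluster neighbour miR-15a differed by 0.16 ± 0.04 (adjusted p = 1.92e-05 and 0.00155). Both calls were lost without scaling, that of miR-16 also with the all-probe percentile (-0.14, adjusted p = 0.147) and that of miR-15a with the total gene signal (0.02, adjusted p = 0.754). miR-15b, at 0.14, lost its call under most alternatives. The large falls in this seed family thus came from 1 of its genomic clusters.

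miR-146a, which NF-kB induces and which represses the Irak1 and Traf6 adaptors of that pathway, read -5.45, -5.32 and -5.40 in 4T1. In 168FARN it read -1.87, -1.78 and -1.88. The arrays of the lines did not overlap, and the difference was -3.54 ± 0.04 (adjusted p = 1.26e-14), an 11.7-fold fall. miR-155, also induced by NF-kB and AP-1, went the other way, with -2.19, -2.21 and -2.15 in 4T1 and -2.91, -2.83 and -3.03 in 168FARN. Its difference was 0.74 ± 0.06 (adjusted p = 2.84e-07).

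The miR-34 genes are transcribed under p53, and with their seed relative miR-449a their miRNAs repress cell cycle genes. All 4 members were called lower in 4T1, against 39.7% of all tested miRNAs. Of these, miR-34a alone was read on all 6 arrays. The others were members through 168FARN alone and lay at the floor in 4T1, so that a lower call was the only one open to them. miR-34a fell from -0.94, -0.82 and -1.02 in 168FARN to -3.88, -3.94 and -3.88 in 4T1, a difference of -2.98 ± 0.05 (adjusted p = 5.73e-13), and its other probe gave -2.94. miR-34b-5p and miR-34c, from one transcript on chromosome 9 (mm9 chr9:50911181-50911736), were read on all 168FARN arrays and on no 4T1 array. They were at least 2.98-fold and 2.35-fold lower in 4T1 (adjusted p = 1.22e-10 and 1.18e-09). miR-449a was close to the floor in both lines, at -5.32, -5.17 and -5.51 in 168FARN and at the floor in 4T1. Although 2 of the 4T1 arrays were marked as well above background, it was set against the floor and was at least 1.19-fold lower (adjusted p = 0.00941). Under the normexp background correction, which adds an offset of 50 to every signal and so compresses dim miRNAs, miR-34c and miR-449a no longer passed.

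**Figure D2:**
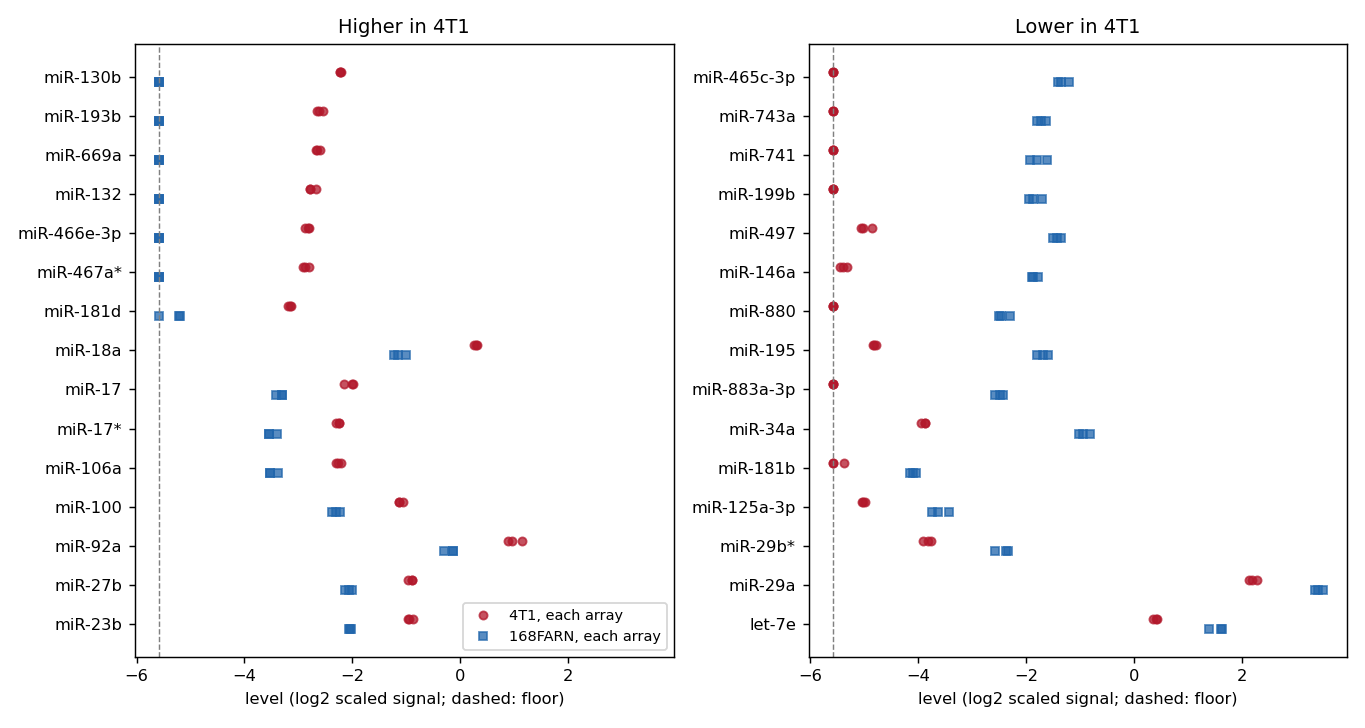
Level (log2 scaled signal) on each of the 3 arrays of 4T1 (circles) and 168FARN (squares) for 15 miRNAs higher and 15 lower in 4T1; the dashed line is the floor. In each row the arrays of the lines stay apart, as for miR-18a, at 0.25 to 0.31 in 4T1 and -1.22 to -1.01 in 168FARN. Most rows were chosen for arrays that do not overlap or for a large bound, so the separation is no result of its own. Over all 202 members the arrays of 172 did not overlap.

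The miRNAs read in 168FARN and on no array of 4T1 numbered 28. Chosen for being read in 168FARN alone, they could only be called lower, as 27 were, so the count says nothing of direction. The exception, miR-378*, was near the floor in 168FARN. Most of them come from the X-linked cluster near Fmr1, which is known from testis. Of its 29 miRNAs with probes, 18 were members, 17 of them read in 168FARN and on no 4T1 array and 1 on a single 4T1 array, so that a lower call was the only one open to them. All 18 were called lower. Their 4T1 levels lay at the floor, and with that floor the differences ran from -4.26 to -0.38 with a median of -2.30, each the smallest size the data allow. miR-465c-3p read -1.35, -1.20 and -1.41 in 168FARN, at least 19.1-fold above 4T1 (adjusted p = 1.26e-14). Its probe also lists miR-465a-3p and miR-465b-3p, which cannot be told from it. miR-743a read -1.73, -1.63 and -1.80 in 168FARN, at least 14.5-fold above 4T1, and miR-741 read -1.80, -1.61 and -1.93, at least 13.9-fold above (adjusted p = 1.26e-14 and 2.71e-13). For miR-880, miR-883a-3p and miR-743b-3p the bounds were 8.91-fold, 8.45-fold and 8.0-fold (adjusted p = 7.65e-14, 1.99e-14 and 1.06e-13). In 67NR and 4TO7 17 of the 18 were not read on any array either, and miR-878-3p was read on 1 array of each line. 16 of the 18 lie within mm9 chrX:64029935-64067184 and the 2 strands of miR-465c lie just beyond it. With normexp 13 of the 18 were called, all lower.

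Of 13 mesenchymal and fibroblast miRNAs with probes 6 were members, and all 6 were called lower in 4T1, with a median of -1.77 that counts values at the floor. Of these, 4 were members through 168FARN alone and could not be called higher, and 2 were read in both lines. The probe named miR-199b, which also lists miR-199a-3p, read -1.87, -1.70 and -1.94 in 168FARN. In 4T1 it lay at the floor on all 3 arrays, although 1 was marked as well above background, so it was at least 13.4-fold lower (adjusted p = 6.80e-14). miR-199a-5p and miR-199b*, further strands of the miR-199 hairpins, were not read in 4T1 and were at least 5.94-fold and 4.76-fold lower (both adjusted p = 7.48e-14). miR-143, a miRNA of smooth muscle and fibroblasts, was at least 2.46-fold lower, a call lost under normexp. miR-140, best known from cartilage, was read in both lines and differed by -0.74 ± 0.04, with its other strand at -0.71 ± 0.05 (adjusted p = 1.72e-08 and 2.91e-07). The remaining 7, miR-145, miR-214 and miR-218 with their other strands, were not read on any of the 6 arrays. The summed scaled signal of the whole list was 0.249 to 0.256 on the 4T1 arrays and 0.914 to 0.989 on the 168FARN arrays. In such samples fewer cells with a miRNA and less of it per cell cannot be told apart.

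miR-342-3p and miR-10a were also read only in 168FARN of the compared lines, at least 7.93-fold and 5.78-fold above 4T1 (adjusted p = 2.61e-13 and 2.33e-13). miR-10a lies in a Hox gene cluster. miR-196b, which lies in another Hox cluster and carries another seed, went the other way. It read -3.66, -3.63 and -3.51 in 4T1 and the floor on all 168FARN arrays, 1 of them marked as well above background, and was thus at least 3.94-fold higher in 4T1 (adjusted p = 1.47e-11).

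The miR-29 family, which represses collagens and DNA methyltransferases, fell as a whole. All 4 of its members were read on all 6 arrays and were called lower, with a median of -1.16 and a range from -1.41 to -1.09. miR-29a read 2.19, 2.14 and 2.28 in 4T1 and 3.41, 3.51 and 3.36 in 168FARN, a difference of -1.22 ± 0.05 (adjusted p = 2.24e-09). miR-29b and miR-29c differed by -1.09 ± 0.06 and -1.09 ± 0.05 (adjusted p = 7.86e-09 and 2.84e-09), and miR-29b*, the other strand of a miR-29b hairpin, by -1.41 ± 0.06 (adjusted p = 1.23e-09). The list's median stayed between -1.18 and -0.93 under the other scalings and normexp.

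Other miRNAs among the 10 largest falls read in both lines were miR-181b, miR-125a-3p, miR-690 and miR-28. miR-181b read -4.15, -4.04 and -4.09 in 168FARN and -5.38, -5.58 and -5.58 in 4T1, where it reached the floor on 2 arrays, a difference of -1.42 ± 0.10 (adjusted p = 1.57e-07). Its relatives miR-181c and miR-181d, neighbours on chromosome 8, were higher in 4T1. miR-690 and miR-28 differed by -1.27 ± 0.12 and -1.17 ± 0.07 (adjusted p = 1.94e-06 and 2.76e-08).

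Among the miRNAs read in 4T1 but on no 168FARN array, 22 in number, 19 were called higher, the only call open to miRNAs chosen in this way. The 3 others, miR-297b-3p, miR-297c and miR-340-3p, lay at or next to the floor on all 6 arrays. miR-130b read -2.23, -2.22 and -2.20 in 4T1. It was at least 10.3-fold higher (adjusted p = 6.03e-14). The neighbouring miR-301b (mm9 chr16:17124164-17124532 for the pair) was dimmer, at -4.46, -4.38 and -4.43, and at least 2.23-fold higher (adjusted p = 5.68e-12), a call lost under normexp. Their seed relative miR-301a was read in both lines and rose by 0.96 ± 0.05, whereas miR-130a differed by 0.05 ± 0.04 (adjusted p = 3.47e-09 and 0.194).

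miR-193b, described as a repressor of plasminogen activator urokinase in breast cancer cells, read -2.65, -2.62 and -2.54 in 4T1 and was at least 7.85-fold higher (adjusted p = 1.02e-09). Its relative miR-193 differed by -0.24 ± 0.05 (adjusted p = 0.00112), a call lost without scaling and when the 75th percentile of all probes set the scale. miR-193* and miR-365, listed with them, differed by -0.11 ± 0.05 and 0.12 ± 0.07 and were not called (adjusted p = 0.0519 and 0.139). miR-132, which CREB drives, read -2.79, -2.79 and -2.68 and was at least 7.08-fold higher (adjusted p = 8.07e-14). miR-212, from the same transcript and with the same seed, read -1.21, -1.24 and -1.13 in 4T1 and -1.92, -1.23 and -1.41 in 168FARN, so that the arrays overlapped. Its difference of 0.33 ± 0.14 (adjusted p = 0.0487) became 0.13 without 168FARN replicate 1 and 0.39 without 168FARN replicate 3, and neither passed.

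The cluster inside the imprinted Sfmbt2 gene on chromosome 2, rich in near-identical copies, gave 13 of the 22 miRNAs read in 4T1 alone, counting miR-297a, whose probe is placed on chromosome 10. Of its 25 miRNAs with probes, 13 were members and 11 were called higher. All 13 were members through 4T1 alone, so no lower call was possible, and their median of 1.26 is taken at the floor in 168FARN. miR-669a read -2.66, -2.67 and -2.60 in 4T1, at least 7.64-fold above 168FARN (adjusted p = 1.99e-14). For miR-466e-3p and miR-467a* the bounds were 6.70-fold and 6.57-fold (adjusted p = 1.26e-14 and 1.99e-14), and their probes also list other miRNAs of the cluster, such as miR-466a-3p and miR-467d*. miR-297a was at least 3.48-fold higher (adjusted p = 2.33e-13). In 4TO7 these 4 were read as well, while in 67NR they were not read. With normexp 6 of the 13 were called higher and the median was 0.11.

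**Figure D3:**
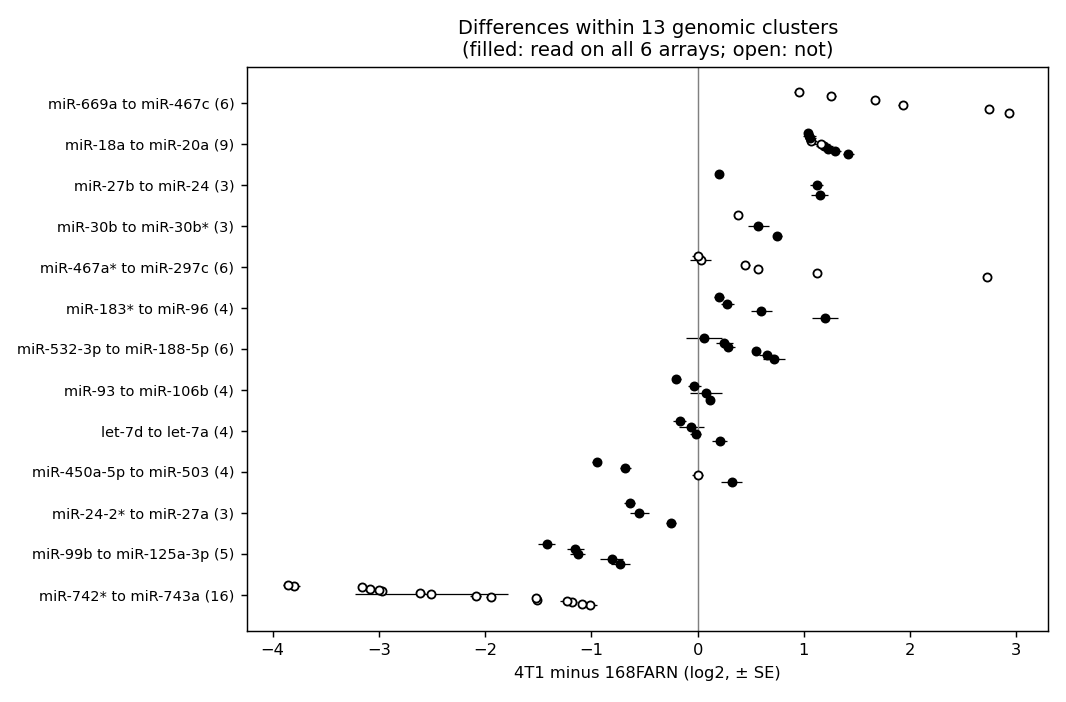
Differences (4T1 minus 168FARN, log2, bars are SE) of the members of 13 genomic clusters with at least 3 members, ordered by median; each row names its highest and lowest member and the number of members. Open points are not read on all 6 arrays and may be bounds. All 9 points of the miR-17-92 row are drawn between 1.04 and 1.42 and all 16 of the X-linked row at the bottom between -3.86 and -1.01, while the row of miR-93 to miR-106b lies between -0.20 and 0.12.

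The miR-17-92 cluster (mm9 chr14:115442915-115443718), the proliferation cluster driven by Myc, was higher in 4T1. All 9 members were called higher. The 7 read on all 6 arrays lay between 1.04 and 1.42, and the other 2 have only a bound. miR-18a read 0.25, 0.31 and 0.30 in 4T1 and -1.16, -1.01 and -1.22 in 168FARN, a difference of 1.42 ± 0.05 (adjusted p = 3.53e-10). miR-92a read 0.96, 0.89 and 1.15 against -0.29, -0.13 and -0.13, a difference of 1.19 ± 0.08 (adjusted p = 5.61e-08). The remaining mature strands miR-17, miR-20a, miR-19a and miR-19b differed by 1.29 ± 0.06, 1.04 ± 0.04, 1.05 ± 0.06 and 1.06 ± 0.05 (adjusted p at most 1.01e-08). Passenger strands moved with them, miR-17* by 1.23 ± 0.04, and miR-18a* and miR-20a*, at the floor in 168FARN, by at least 2.23-fold and 2.10-fold. For miR-18a* and miR-20a* alike, 2 of the 168FARN arrays were nonetheless marked as well above background. All 9 were called higher under the 4 other scalings, and 7 under normexp, where miR-18a* and miR-20a* lost their calls.

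Of 10 paralog miRNAs of miR-17-92 with probes 6 were members. Those of 1 paralog cluster moved with miR-17-92 and those of the other did not. miR-106a and miR-20b, from the X-linked copy, rose by 1.22 ± 0.05 and 1.09 ± 0.03 (adjusted p = 1.47e-09 and 2.03e-11). Their sequences are close to those of miR-17 and miR-20a. The mean levels of miR-106a were also near those of miR-17, at -2.26 against -2.05 in 4T1 and -3.48 against -3.34 in 168FARN. Those of miR-20b and miR-20a lay further apart, at 0.41 against 1.47 in 4T1. Whether the probes tell these miRNAs apart was not tested. In the copy within Mcm7 on chromosome 5 (mm9 chr5:138606560-138607031), miR-93 differed by 0.12 ± 0.03, miR-106b by -0.20 ± 0.04 and miR-25 by -0.03 ± 0.06 (adjusted p = 0.0103, 0.00203 and 0.742). The calls for miR-93 and miR-106b were both lost without scaling, and the difference of miR-106b turned to 0.04 with the 75th percentile of all probes. miR-93 and miR-106b carry the seed of miR-17, and miR-25 that of miR-92a. The difference between the clusters was not tested.

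Sister clusters of the miR-23 and miR-27 families were called in opposite directions. miR-23b and miR-27b on chromosome 13 read -0.97, -0.95 and -0.87, and -0.96, -0.90 and -0.90, in 4T1. In 168FARN they read -2.02, -2.06 and -2.05, and -2.0, -2.14 and -2.06. Both were higher in 4T1, by 1.12 ± 0.06 and 1.15 ± 0.08 (adjusted p = 6.40e-09 and 1.72e-07). miR-23a and miR-27a, their sisters on chromosome 8, were lower, by -0.55 ± 0.09 and -0.64 ± 0.05 (adjusted p = 0.000128 and 1.48e-07). miR-24 is made by both clusters with one mature sequence and differed by 0.20 ± 0.03 (adjusted p = 0.000231).

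The cluster of miR-99b, let-7e and miR-125a on chromosome 17 (mm9 chr17:17967164-17967840) was lower in 4T1 in all 5 of its members, from -1.42 to -0.73. let-7e read 0.42, 0.36 and 0.43 in 4T1 and 1.62, 1.64 and 1.39 in 168FARN, a difference of -1.15 ± 0.08 (adjusted p = 9.52e-08). miR-125a-5p read -0.81, -0.71 and -0.54 against 0.39, 0.53 and 0.42, a difference of -1.13 ± 0.07 (adjusted p = 2.81e-08). miR-125a-3p and miR-99b differed by -1.42 ± 0.08 and -0.73 ± 0.09 (adjusted p = 1.94e-08 and 1.38e-05). The seed relatives of miR-125a-5p and miR-99b made by other clusters were higher, while those of let-7e went both ways. miR-125b-5p read 3.83, 3.87 and 3.96 in 4T1 and 2.78, 2.87 and 2.79 in 168FARN, a difference of 1.07 ± 0.04 (adjusted p = 7.38e-10). miR-100 and miR-99a rose by 1.20 ± 0.06 and 0.88 ± 0.07 (adjusted p = 5.87e-09 and 3.06e-07). Over the 7 members of these clusters 3 were called higher and 4 lower under each scaling tried and under normexp.

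The let-7 family, which represses Ras and Hmga2, showed no common direction. Of 10 members, which include miR-98, 3 were called higher, 5 lower and 2 were not called, with a median of -0.11. let-7g was the highest at 0.54 ± 0.07, and let-7i and let-7b were lower by -0.71 ± 0.06 and -0.58 ± 0.08 (adjusted p = 1.56e-05, 1.03e-06 and 3.39e-05). With quantile normalization 5 were called higher, 3 lower, and the median was 0.13.

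**Figure D4:**
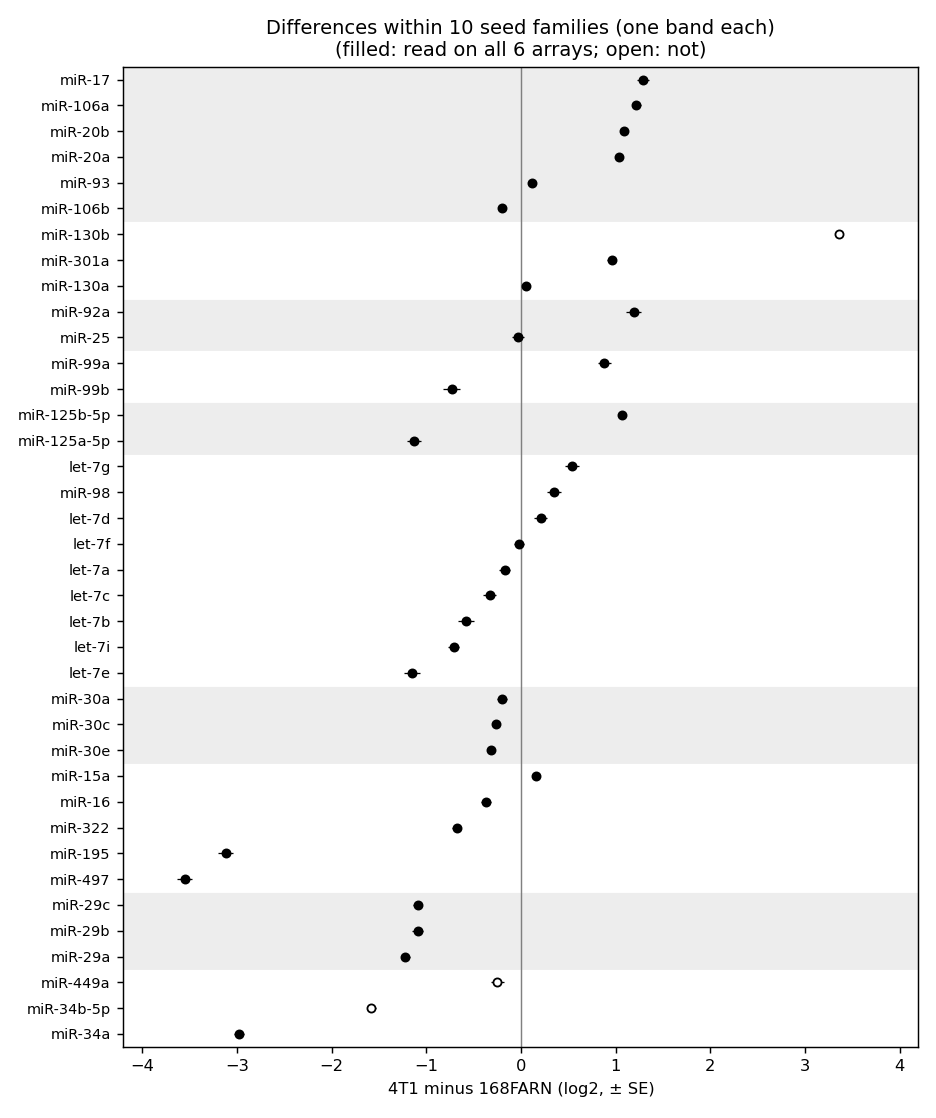
Differences (4T1 minus 168FARN, log2, bars are SE) of miRNAs that share a seed, one shaded or white band per seed, for the 7 seeds with at least 3 members and 3 seeds with 2. Only members with a sequence are drawn, so some relatives, such as miR-30b and miR-30d, are absent. miR-29a, miR-29b and miR-29c lie together near -1.09 to -1.22, while miR-125b-5p at 1.07 and miR-125a-5p at -1.13 lie on opposite sides of 0.

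Over the members read on all 6 arrays, the range of differences was smaller among neighbours in the genome than among miRNAs of one seed. In the 29 genomic clusters with at least 2 such members, the range of differences within a cluster had a median of 0.31, and 24 held no opposite calls. In the 11 seed families with at least 2, the median range was 1.22, and 6 held no opposite calls. Families were formed only from the 136 members with a sequence, so these values leave out relatives without one. miR-30b and miR-30d, called higher at 0.75 and 0.57, are missing from the miR-30 family. That family, with miR-30a, miR-30c and miR-30e, counts among the 6. miR-23b and miR-27b, called opposite to miR-23a and miR-27a, are missing too. Clusters here include strands of the same hairpin, and the contrast was not tested. A range grows with the number of members, and families were larger, with 38 miRNAs in 11 families against 79 in 29 clusters. Both strands of 20 hairpins were read on all 6 arrays. In 15 of them both strands were called, 14 in the same direction, and the median gap between strands was 0.17. The 1 exception was miR-9, where miR-9 rose by 0.34 ± 0.10 and miR-9* fell by 1.02, with an SE of 0.08 (adjusted p = 0.0121 and 3.30e-07). Several genes make miR-9, and the call for miR-9 was lost under normexp, with the total gene signal, with the mean of all probes and with no filter.

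The miR-30 family of differentiated epithelium had small differences. miR-30b rose by 0.75 ± 0.04, its neighbour miR-30d by 0.57 ± 0.10, and miR-30c and miR-30e differed by -0.26 ± 0.03 and -0.32 ± 0.03 (adjusted p = 3.06e-08, 0.000252, 2.83e-05 and 5.49e-06). Of the 9 members 3 were called higher and 5 lower, but with the 75th percentile of all probes 3 were called higher and none lower, and without scaling 3 and 1. None of the 5 lower calls held in either setting, and the 1 lower call without scaling was of another member. The median difference of the 9 members was -0.16, but 0.03 under the all-probe scale.

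The miR-183 cluster, of sense organs and epithelia, was called higher in all 4 members, with a median of 0.44. miR-183* rose most, from -4.97, -4.96 and -5.10 to -3.83, -3.82 and -3.78, a difference of 1.20 ± 0.12 (adjusted p = 2.62e-06). miR-183, miR-182 and miR-96 differed by 0.60 ± 0.10, 0.28 ± 0.06 and 0.20 ± 0.05 (adjusted p = 0.000185, 0.000698 and 0.00597), and the call for miR-96 was lost within the second slide and without scaling. With the total gene signal miR-182 and miR-96 both lost their calls, at 0.15 and 0.10 (adjusted p = 0.541 and 0.252), which left 2 of the 4. No member of the miR-200 family, the defining miRNAs of epithelium, was read on any of the 6 arrays (0 of 5), nor were miR-203, miR-205 and 4 other epithelial miRNAs (0 of 6).

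The largest rise of a miRNA read on all 6 arrays was that of miR-181d. It read -3.13, -3.20 and -3.16 in 4T1 and -5.58, -5.22 and -5.19 in 168FARN, where 1 array was at the floor, a difference of 2.17 ± 0.11 (adjusted p = 7.69e-09). Its neighbour miR-181c was not read in 168FARN and was at least 2.36-fold higher (adjusted p = 5.14e-11), a call lost under normexp.

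Smaller shared changes were seen in other groups. miR-103 and miR-107, which repress Dicer1 and have been reported to promote breast cancer metastasis, rose by 0.82 ± 0.05 and 0.52 ± 0.05 (adjusted p = 2.35e-08 and 1.81e-06). In the Clcn5 intron cluster on the X chromosome 5 of 6 members were called higher, against 34.4% of all tested miRNAs. miR-500 differed by 0.55 ± 0.04 and miR-532-5p by 0.65 ± 0.07 (adjusted p = 8.37e-08 and 9.74e-06). Higher calls in the cluster fell to 3 of 6 without scaling and 2 of 6 with normexp. miR-26a, which represses Ezh2, was lower by -0.63 ± 0.06, and miR-148b, which represses Dnmt1, by -0.57 ± 0.04 (adjusted p = 1.96e-06 and 2.56e-07). miR-101a and miR-101b share a role and went apart, at -0.34 ± 0.05 and 0.34 ± 0.03 (adjusted p = 5.99e-05 and 2.62e-06), although the difference of miR-101a was 0.15 under quantile normalization. Of 73 miRNAs of the imprinted Dlk1-Dio3 cluster with probes 2 were members, miR-494 at -0.58 ± 0.05 and miR-487b at -1.08 ± 0.13 (adjusted p = 1.60e-06 and 1.63e-05), and the other probe of miR-487b gave -0.14.

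Several miRNAs widely studied in tumours differed little between the lines. miR-21 read 4.27, 4.27 and 4.28 in 4T1 and 4.18, 4.37 and 4.17 in 168FARN, a difference of 0.03 ± 0.06 (adjusted p = 0.698). For miR-210, induced by hypoxia, the difference was 0.17 ± 0.08, and for miR-221 it was -0.10 ± 0.09 (adjusted p = 0.0655 and 0.316). miR-31, reported to suppress metastasis, was higher by 0.17 ± 0.03 and its other strand by 0.27 ± 0.06 (adjusted p = 0.000659 and 0.00216). Without scaling, and with the total gene signal, neither strand passed. Of 6 members reported to promote breast cancer metastasis 5 were called higher, against 34.4% of all tested miRNAs. All 6 were read on all 6 arrays, and of the 137 miRNAs so read 53 were called higher. The list was chosen with earlier results of these data known, and the contrast was not tested. Of the 5, miR-182 and miR-9 lost their calls with the total gene signal (0.15 and 0.19, adjusted p = 0.541 and 0.256). Of 6 reported to suppress it 3 were called higher, miR-193b, miR-126-3p and miR-31, and 3 lower, miR-146a, miR-34a and miR-206. Over all tested miRNAs the shares were 34.4% and 39.7%. Of the compared lines, miR-193b and miR-126-3p were read in 4T1 alone and miR-206 in 168FARN alone. Only 1 direction was open to each of these.

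Markers of other cell types were few. Of 7 haematopoietic miRNAs miR-142-3p alone was read, in 168FARN at -4.68, -4.63 and -4.78 and not in 4T1, at least 1.84-fold lower in 4T1 (adjusted p = 7.82e-10). The summed scaled signal of the list was 0.0509 to 0.0595 in 168FARN and 0.00904 to 0.0159 in 4T1, and miR-223, miR-150, miR-144 and miR-451 were not read. Of 7 muscle miRNAs miR-206 alone was read, also only in 168FARN, at least 1.63-fold above 4T1 (adjusted p = 7.05e-07), while miR-1, miR-133a and miR-133b were not read. Of 2 endothelial miRNAs miR-126-3p was read, in 4T1 at -4.69, -4.65 and -4.58, at least 1.91-fold above 168FARN (adjusted p = 3.76e-08), and miR-126-5p was not. None of these 3 calls passed under normexp. Neither miR-122 nor 4 other miRNAs of liver and pancreas were read. Of 15 miRNAs of the nervous system 6 were members, 1 called higher and 4 lower, and miR-124 was not read. Over all tested miRNAs the shares were 34.4% higher and 39.7% lower. Of the 4 lower, 1 was a member through 168FARN alone and lay at the floor in 4T1, so that only a lower call was open to it. None of 22 miRNAs from the embryonic stem cell clusters was a member.

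**Figure D5:**
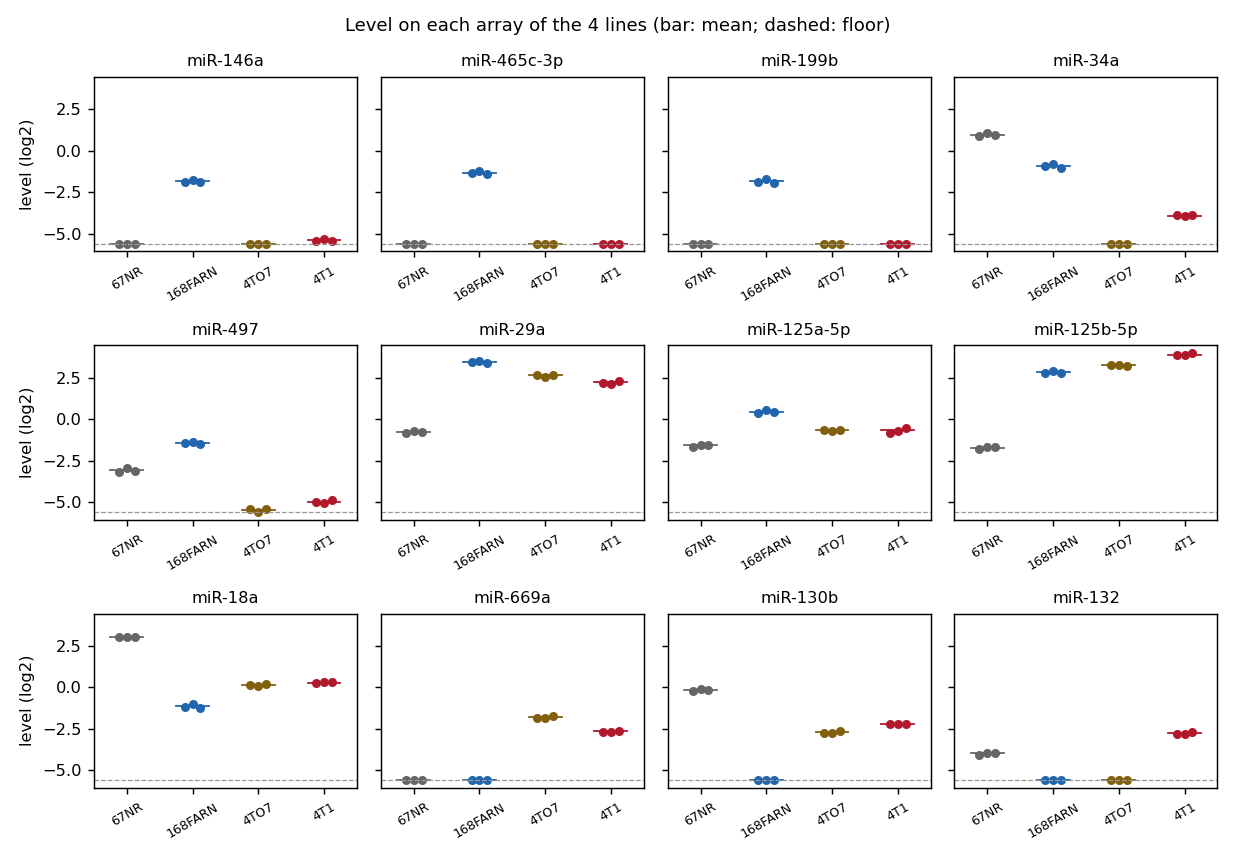
Level (log2 scaled signal) on each of the 3 arrays of 67NR, 168FARN, 4TO7 and 4T1 for 12 miRNAs; bars are means and the dashed line is the floor. miR-146a, miR-465c-3p and miR-199b are above the floor chiefly in 168FARN, miR-669a in 4TO7 and 4T1, and miR-18a and miR-130b are highest in 67NR.

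The levels in 67NR and 4TO7 place these differences among the lines, as a description. miR-146a, at -1.84 ± 0.06 (SD, n = 3) in 168FARN and -5.39 ± 0.06 in 4T1, was at the floor in both other lines. miR-497 was at -3.08 ± 0.13 in 67NR and -5.46 ± 0.10 in 4TO7, so that 4T1 at -4.98 ± 0.11 lay between them. miR-34a was at 0.97 ± 0.08 in 67NR, above 168FARN at -0.92 ± 0.10, and at the floor in 4TO7. For miR-18a 4T1 at 0.29 ± 0.03 was close to 4TO7 at 0.14 ± 0.07, and 67NR at 3.03 ± 0.02 was far above every other line. miR-130b likewise was highest in 67NR, at -0.16 ± 0.05, against -2.21 ± 0.02 in 4T1 and -2.71 ± 0.09 in 4TO7. miR-132 was read in 67NR, at -3.98 ± 0.07, and not in 4TO7.

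The spread of the arrays limited few members. miR-202-3p and miR-697 had 1 bright array in 168FARN, replicate 2, at -0.44 and -2.71, against -2.64 and -1.94, and -5.19 and -4.66, on the others. Their differences of -0.62 ± 0.66 and -0.82 ± 0.78 were not called (adjusted p = 0.441 and 0.380). miR-878-3p had an SE of 0.72, set by single bright arrays in 67NR and 4TO7, and was lower by at least 5.69-fold (adjusted p = 0.00837). For 107 of the 137 miRNAs read on all 6 arrays another probe was measured, none gave a difference of opposite sign with both over 0.1, and the median gap between probes was 0.050.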

How the data were processed

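Per the file headers the authors read the 12 arrays with Agilent Feature Extraction 10.2.1.3, and the deposited intensity values are processed signals with the background subtracted and no scaling between arrays. The deposited value table of the series equals them (largest difference 0).

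Control spots and flagged spots (284 to 508 per array) were left out, and the spots of each of 1712 probes were averaged. A probe was read if more than 50% of its spots were well above background. Signals were scaled by the 75th percentile, per array, of the 170 probes read on all 12 arrays. Scaled values below 0.0209 (log2 -5.58) were set to it; this floor is the dimmest read probe of each array, taken as a median across arrays. The brightest probe stood for a miRNA. The package limma 3.58.1, run in R 4.3.3, fitted the 4 lines with 8 residual degrees of freedom. The fit was checked on simulated levels with known fold changes. The number of arrays limits the precision.

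A bound sets the mean of the read line over the higher of the floor and the lowest read level, per array, of the other. Where the other line was read on some arrays but lay at the floor on all, the floor itself was used. Probe positions are mm9, per the file headers, and genomic clusters have gaps of at most 10 kb. RefSeq names matched 36 members. For 100 others the arm was taken from position, where the distance to another miRNA of the chromosome was the same within 1 base in mm9 and GRCm38.p6. Of 113 array miRNAs with both kinds of match, all 113 gave the same name.

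The members, lists, naming rule and alternatives were chosen with earlier results of these data known. The naming rule took the 10 highest and 10 lowest called members read on all 6 arrays with arrays that do not overlap, and the 6 largest bounds each way. It also took up to 4 members of each list in order of adjusted p (all of a list under 5), which with the above gave 106 miRNAs. Up to 3 members of each cluster and seed family with 3 or more could be added. Not all that the rule took are described above. Among those left out are miR-7a, miR-21*, miR-26b, miR-30b*, miR-128, miR-152, miR-222, miR-362-3p, miR-470 and miR-532-3p. miR-15a, miR-15b, miR-16, miR-18a*, miR-19a, miR-20a*, miR-24, miR-25, miR-30d, miR-98, miR-99a, miR-99b, miR-140, miR-202-3p, miR-297b-3p, miR-297c, miR-340-3p, miR-342-3p, miR-378*, miR-697 and miR-878-3p were named after their values were seen. Alternatives were other scalings, background correction, summaries, filters, floors, slide, replicate block, samples and variance models.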

Additional observations from a re-analysis of the deposited data

How the results depend on the processing

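The count of calls, 166, ranged from 121 with normexp to 178 with a halved floor over all alternatives that tested the 224 miRNAs, and was 154 with no filter (567 tested). Restricting the test to the 137 miRNAs read on all 6 arrays gave 110 calls, 57 of them lower, because fewer were tested, with 15 higher and 17 lower by 2-fold. Changes of 2-fold numbered 10 higher and 18 lower with normexp and 20 and 27 with a doubled floor, which both compress dim signals. Leaving out 1 array of either line at a time gave 159 to 168 calls, 73 to 81 higher and 85 to 92 lower, with 32 to 33 and 39 to 43 by 2-fold. No call turned its direction except 4 under quantile normalization, all small falls in the fit as reported (miR-101a, miR-24-2*, miR-30e* and miR-574-5p). Among named miRNAs the sign turned for miR-101a (0.15 with quantile normalization), miR-106b (0.04 under all-probe percentile scaling) and miR-93 (-0.01 with the total gene signal), the last 2 without a call. Of the 106 miRNAs that the naming rule took from rankings, bounds and lists, 99 were called, and 70 kept their call under every alternative. With the replicate number as a block (replicate block) 166 were called, 164 of them as before. Same-numbered arrays deviated together at r = 0.03, -0.32 and 0.03, and arrays of unlike numbers at -0.35 to 0.43. These values show no sign of pairing by number, but 3 arrays per line are too few to exclude it. Within the second slide alone 155 of the 166 calls were kept. A doubled floor lowered the bounds, that of miR-130b from 10.3 to 5.15-fold.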

Other observations

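Of 10 viral miRNAs with probes 1, mghv-miR-M1-2, was marked as well above background on 3 arrays of 168FARN and 2 of 4T1. Its processed signal was 14.2 to 15.5 units in 4T1 and 14.9 to 16 in 168FARN, below the floor of 16.6 to 25.4 units on those arrays, so it gives no difference between the lines.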
